A study of Mus musculus with 6 samples.

Results

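Messenger RNA was measured by sequencing for 7 genes, the colony-stimulating factors and their receptors: Csf1 and Il34 (ligands), Csf1r, Csf2ra, Csf2rb, Csf2rb2 and Csf3r (receptor chains). The members were taken by gene symbol and not by a rule on their values, but with earlier results of these data known. They are 7 of the 55304 gene symbols in the deposited table. All 7 were present and all 7 passed the filter on low values. The cells were microglia, the resident macrophages of the brain, sorted on CD45 and CD11B from C57BL/6 mice 4 to 5 weeks old. The 3 libraries labelled KO came from animals of genotype QKIflfl; Cx3cr1cre-ert2, in which a Cre recombinase fused to an estrogen receptor domain is driven by Cx3cr1. The 3 libraries labelled WT came from QKIfl/fl animals, so every animal carried the floxed Qk alleles and the groups also differed in the Cre allele. The labels name no tamoxifen treatment. They give no cultures, animals or pools per library, so the p-values describe the spread between these libraries, which may be technical.

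CSF1 and interleukin 34 are the ligands of the receptor tyrosine kinase CSF1R, on which microglia depend for survival in the adult brain. The GM-CSF receptor pairs a ligand-binding alpha chain, from Csf2ra, with the beta common chain, from Csf2rb, which also serves the interleukin 3 and interleukin 5 receptors. The mouse has a second beta chain gene, Csf2rb2, whose product serves interleukin 3. Csf3r encodes the receptor of G-CSF, best known from neutrophils and their precursors.

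The libraries held 56988261 to 77199936 recovered reads. Values are normalised reads on the authors' scale, on which each library has nearly the same total. Qk, the targeted gene, was higher in the libraries labelled KO, with 24768 ± 1073 normalised reads against 11632 ± 800 in those labelled WT (SD, n = 3 each), so it goes against that label if loss of the transcript is taken as the sign of a knockout. Reads per exon were not analysed here. Every direction below is therefore that of libraries so labelled, written KO A to KO C and WT A to WT C after the columns' letters. Of 22472 genes tested with limma in all, 34.6% passed an adjusted p of 0.05. Over the 22472 genes the median of the log2 fold changes was -0.15 on the deposited scaling and -0.02 with trimmed-mean (TMM) factors. Of 8 microglial markers 6 were lower (5 lower and 1 higher with TMM factors). Of all tested genes 23.4% were lower with the deposited scaling, and 15.4% passed in each direction with TMM factors. Aif1 and Siglech did not pass with the deposited scaling, with log2 fold changes of 0.09 and -0.17. P2ry12 and Tmem119, markers that define microglia, had means of 21842 and 59842 normalised reads in the libraries labelled KO, against 147375 and 103407 in those labelled WT. Library WT C held the highest neutrophil, monocyte, neuronal, astrocyte, oligodendrocyte and endothelial marker sums of the 6 libraries.

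Within the family 3 genes rose in the libraries labelled KO, Csf1, Csf2ra and Csf2rb, and 2 fell, Csf1r and Il34. The other two, Csf2rb2 and Csf3r, did not pass with the deposited scaling. Of all genes tested 34.6% passed, 11.3% as higher and 23.4% as lower. The median log2 fold change of the 7 was 0.15 on that scaling. With TMM factors 4 rose and 2 fell, Csf3r being the additional one, and the median was 0.28; of all genes 30.7% passed with those factors, 15.4% in each direction. The 2 groups did not overlap for 6 of the 7 members, where 47.9% of all tested genes did not overlap. With KO A, KO C or WT C left out, 3 members rose and 1 fell, Il34 no longer passing.

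**Figure D1:**
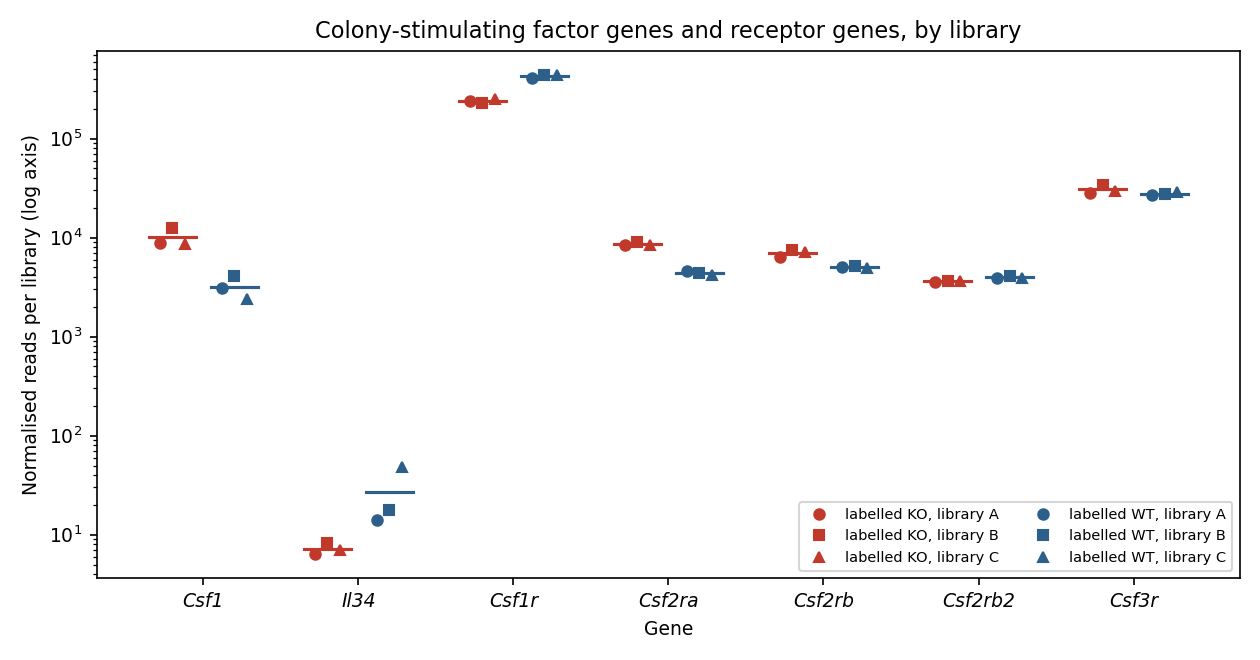
Normalised reads (log axis) of the 7 genes in each library; red points are libraries labelled KO, blue points those labelled WT, the point shape gives the column letter and the horizontal line is the group mean. The groups overlap only for Csf3r, and Il34 lies at 6.41 to 48.2, orders of magnitude under the other genes.

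Csf1, which encodes the ligand CSF1 (M-CSF), had the largest rise of the family. It held 8813, 12653 and 8675 normalised reads in KO A, KO B and KO C, against 3100, 4073 and 2410 in WT A, WT B and WT C. The lowest library labelled KO lay above the highest labelled WT, and library B was the highest of its group in both. The ratio of means was 3.15, and on the log2 scale Csf1 rose by 1.66 (SE 0.18; limma, adjusted p = 6.76e-05), a value that 97.7% of the tested genes did not exceed. The gene spans chr3:107741048-107760469 (GRCm38, minus strand), and its transcript in the table has 9 exons. Glia and vessel cells also express Csf1. The astrocyte marker sum was 2959.0 to 3825.3 in the libraries labelled KO and 6453.6 to 9694.5 in those labelled WT, with 7 of 8 markers lower. The oligodendrocyte sum was 5489.6 to 6318.7 against 8003.4 to 21042.3, with 4 of 7 lower, and the endothelial sum 683.0 to 856.9 against 1975.8 to 3483.1, with 5 of 6 lower. Of all tested genes 23.4% were lower. Slc1a3 held most of the astrocyte sum, and Pecam1 most of the endothelial sum, in every library. The part of astrocytes, oligodendrocytes and endothelial cells in the Csf1 result was not tested.

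Il34, the other ligand of CSF1R and in the brain mainly a product of neurons, was close to the limit of detection. It had 6.41, 8.32 and 7.03 normalised reads in the libraries labelled KO, each from 14 or 15 recovered reads, against 14.2, 17.8 and 48.2 in those labelled WT, from 28 to 80 reads. The groups did not overlap, and WT C held far more than the other libraries. The log2 fold change was -1.55 (SE 0.45, adjusted p = 0.0209, limma). It was -1.04 without WT C (adjusted p = 0.0582), and the call was also lost without KO A (adjusted p = 0.0528) or KO C (adjusted p = 0.0589) and with limma-voom. Of 10 neuronal markers 9 were lower, where 23.4% of all tested genes were, and the summed level of the 10 was 135.3 to 172.2 against 308.4 to 445.0. Syp, the 1 that did not pass, held most of that sum in the libraries labelled KO. Astrocyte, oligodendrocyte and endothelial sums, given above, were lower too. The lowest neuronal markers, Syt1, Gad2 and Slc17a7, were near 2 normalised reads in the libraries labelled KO. In WT A, WT B and WT C, Gad2 was at 10.6, 8.90 and 22.9, highest in WT C as Il34 was. Syt1, at 16.2, 22.2 and 12.1, and Slc17a7, at 9.12, 20.5 and 9.65, were highest in WT B. In sorted cells measured in bulk, fewer cells of a type and less RNA per cell cannot be told apart, and the part of neuronal RNA in the Il34 result was not tested. The gene spans chr8:110741840-110805903 (minus strand). Of its 1709 exonic bases 5.7% overlap the antisense genes Gm15894 and Gm15895. The sources used here do not say whether reads were counted by strand.

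Csf1r, which encodes the receptor of both ligands, was by far the most abundant member. KO A, KO B and KO C held 239016, 229940 and 250878 normalised reads, against 412283, 440153 and 441803 in WT A, WT B and WT C. Every library labelled KO lay under every library labelled WT, and within each group the values were within a narrow range. The gene took 0.669% to 0.73% of all reads in the libraries labelled KO and 1.2% to 1.29% in those labelled WT. The WT mean was 1.80-fold the KO mean, and the log2 fold change was -0.85 (SE 0.10, adjusted p = 0.000142, limma) and -0.71 with TMM factors (adjusted p = 0.00109). Per kilobase of transcript it ranked 27 to 33 among all gene symbols in the libraries labelled KO and 8 to 9 in those labelled WT. The gene lies on chromosome 18, on the plus strand. Other macrophages express Csf1r too: of 8 markers of border-associated macrophages 4 rose and 1 fell, with a sum of 22606.8 to 25261.6 against 31545.4 to 32663.9 normalised reads. Stab1, the 1 that fell, held most of that sum, and the other 7 summed to 2081.7 to 3508.1 against 1127.4 to 1748.4. Of 8 monocyte markers 4 fell, with a sum of 358.1 to 468.3 against 627.6 to 1854.6. Of all tested genes 11.3% rose and 23.4% fell. The part of these macrophages and monocytes in the Csf1r result was not tested.

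The balance of ligand and receptor messages was then read within each library. Csf1 reads were 3.69%, 5.5% and 3.46% of Csf1r reads in KO A, KO B and KO C, against 0.752%, 0.925% and 0.545% in WT A, WT B and WT C. The difference of the log2 ratio was 2.51, with no overlap between groups (two-sided exact permutation p = 0.1, the smallest that 3 against 3 libraries allow; adjusted p = 0.133 over 4 ratios). The log2 ratio of Il34 to Csf1r differed by -0.71, and there the groups overlapped (exact permutation p = 0.2, adjusted p = 0.2). The percentages do not depend on the scaling of a library. The log2 ratios were taken after 1 was added to each value, so for a gene as low as Il34 they are not free of the scaling.

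**Figure D2:**
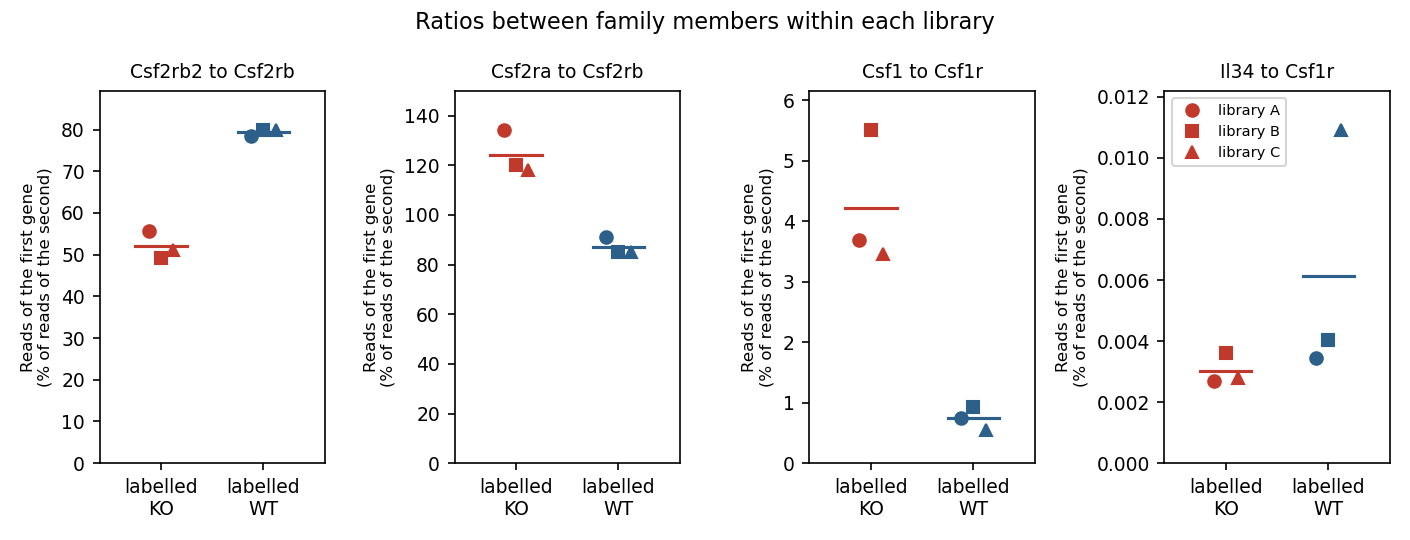
Reads of the first gene as a percentage of the reads of the second within each library, for 4 pairs; red points are libraries labelled KO, blue points those labelled WT, point shapes give the column letter and lines are group means; each axis starts at 0. The groups are apart for the first 3 pairs and overlap for Il34 to Csf1r.

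The reading of the beta chain genes rests on how far their sequences differ. Csf2rb (plus strand, chromosome 15 at 78325752 to 78351001) and Csf2rb2 (minus strand, 78282507 to 78305721) are neighbours that point away from each other, 20030 bases apart. Their coding sequences were identical at 95.4% of 2626 aligned positions in the transcripts that the table names (GENCODE M21). The longest run that both transcripts share is 242 bases within the coding sequence, at chr15:78348577-78348818 in exon 15 of Csf2rb and, on the minus strand, at chr15:78284630-78284871 in exon 14 of Csf2rb2 (GRCm38). It is shown because a read from it cannot be placed in either gene, and its capitals mark the 62 bases annotated as a microRNA hairpin in both genes, Mir7676-2 and Mir7676-1.
Shared coding run of Csf2rb and Csf2rb2: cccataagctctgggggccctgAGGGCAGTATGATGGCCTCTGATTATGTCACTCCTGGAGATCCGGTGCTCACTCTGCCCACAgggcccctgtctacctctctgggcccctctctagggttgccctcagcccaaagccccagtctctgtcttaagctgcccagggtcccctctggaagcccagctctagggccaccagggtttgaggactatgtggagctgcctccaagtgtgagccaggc
Of all windows of 50 bases in the Csf2rb transcript 18.4% occur also in that of Csf2rb2, and 7.0% of windows of 100 bases; in the Csf2rb2 transcript the shares are 19.0% and 7.2%. The most different aligned stretch of 60 coding bases within 1 exon of each gene holds 13 mismatches, which the capitals mark. It lies at chr15:78338893-78338952 in exon 5 of Csf2rb and at chr15:78294379-78294438 in exon 4 of Csf2rb2, and it shows where a read does tell them apart.
Csf2rb: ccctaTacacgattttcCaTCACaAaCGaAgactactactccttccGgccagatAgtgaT
Csf2rb2: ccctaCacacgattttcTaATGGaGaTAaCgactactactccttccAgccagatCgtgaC
The sources used here give neither the read length nor the treatment of reads with several positions, so how reads were divided between the pair is uncertain.

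Csf2rb, the beta common chain, held 6356, 7448 and 7127 normalised reads in the libraries labelled KO, against 5006, 5117 and 4925 in those labelled WT. The groups did not overlap, and the log2 fold change was 0.47 (SE 0.07, adjusted p = 0.000754, limma). Csf2rb2, the beta chain of the interleukin 3 receptor, held 3541, 3663 and 3648, against 3928, 4085 and 3928. These groups did not overlap either, but the log2 fold change of -0.14 (SE 0.06) did not pass (adjusted p = 0.119), with a 95% interval of -0.28 to 0.00. With TMM factors it was 0.00 (adjusted p = 0.997). Csf2rb2 had 55.7%, 49.2% and 51.2% of the reads of Csf2rb in KO A, KO B and KO C, against 78.5%, 79.8% and 79.8% in WT A, WT B and WT C. The log2 ratio differed by -0.61 (exact permutation p = 0.1, adjusted p = 0.133), the smallest p possible here, so the design could not show a difference at 0.05. The rows of the hairpins inside the shared run had 69.6, 72.6 and 74.5 against 50.1, 49.9 and 61.5 normalised reads for Mir7676-2 in Csf2rb. For Mir7676-1 in Csf2rb2 they had 42.6, 45.5 and 39.8 against 35.0, 52.5 and 35.6. Neither row passed with the deposited scaling, with log2 fold changes of 0.42 (adjusted p = 0.107) and 0.08 (adjusted p = 0.836). With TMM factors Mir7676-2 had 0.56 and passed (adjusted p = 0.0351). These reads come from exons of the host messages or from the hairpin, which cannot be told apart. The 62 bases are the same in both genes and a read within the shared run cannot be placed. The rows of Mir7676-2 and Mir7676-1 may therefore not measure each gene apart.

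Csf2ra, the alpha chain that binds GM-CSF, rose more than either beta chain. It held 8515, 8935 and 8434 normalised reads in KO A, KO B and KO C, against 4555, 4362 and 4184 in WT A, WT B and WT C. The groups were far apart, with a ratio of means of 1.98 and a rise of 0.98 on the log2 scale (SE 0.07; limma, adjusted p = 2.11e-06). Csf2ra reads were 134%, 120% and 118% of Csf2rb reads in the libraries labelled KO, against 91%, 85.2% and 85% in those labelled WT. The log2 ratio differed by 0.51 (exact permutation p = 0.1, adjusted p = 0.133). The gene spans chr19:61224402-61228418 (minus strand). No read of Csf2, which encodes GM-CSF itself, was recovered in any library; a count of 0 allows up to 3 reads, or 1.34 to 1.81 normalised reads, and covers counting error only. T and natural killer cells are sources of Csf2, and their marker sum was 3.7 to 5.0 against 11.6 to 16.3 normalised reads, with Cd8a and Ncr1 at 0 in all 6 libraries. Of these 8 markers only 1 reached the level tested, and it held most of the sum in every library.

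Csf3r held 27940, 34063 and 29917 normalised reads in the libraries labelled KO, against 26650, 27476 and 28683 in those labelled WT. The groups overlapped, since WT C lay above KO A. The log2 fold change of 0.15 (SE 0.09) did not pass (adjusted p = 0.224), with a 95% interval of -0.05 to 0.34. With TMM factors it was 0.28 and passed (adjusted p = 0.0356). Neutrophils express this gene, and the neutrophil marker sum was 63.2 to 123.3 in the libraries labelled KO and 1896.5 to 16964.1 in those labelled WT. Of 10 tested markers 8 were lower, where 23.4% of all tested genes were. Mmp8, Ly6g and Elane were at 0 in the libraries labelled KO. WT A, WT B and WT C had neutrophil sums of 5404.3, 1896.5 and 16964.1. The part of neutrophils in the Csf3r result was not tested. The gene spans chr4:126024550-126044440 (plus strand). Csf3, its ligand gene, did not reach the level tested, at 0.92, 1.11 and 0 normalised reads against 0.51, 0 and 1.81.

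Levels of different genes were set side by side per kilobase of the transcript named in the table. In the libraries labelled KO the order of mean levels was Csf1r at 62698 normalised reads per kilobase, Csf3r at 8886, Csf2ra at 4725, Csf1 at 2416, Csf2rb at 1432, Csf2rb2 at 768 and Il34 at 4.28. In the libraries labelled WT it was Csf1r at 112729, Csf3r at 8006, Csf2ra at 2392, Csf2rb at 1030, Csf2rb2 at 845, Csf1 at 768 and Il34 at 15.8. Csf1 thus stood above both beta chains in every library labelled KO. In those labelled WT its range, 579 to 979, included that of Csf2rb2, 833 to 867, so these neighbours did not differ beyond their spread.

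**Figure D3:**
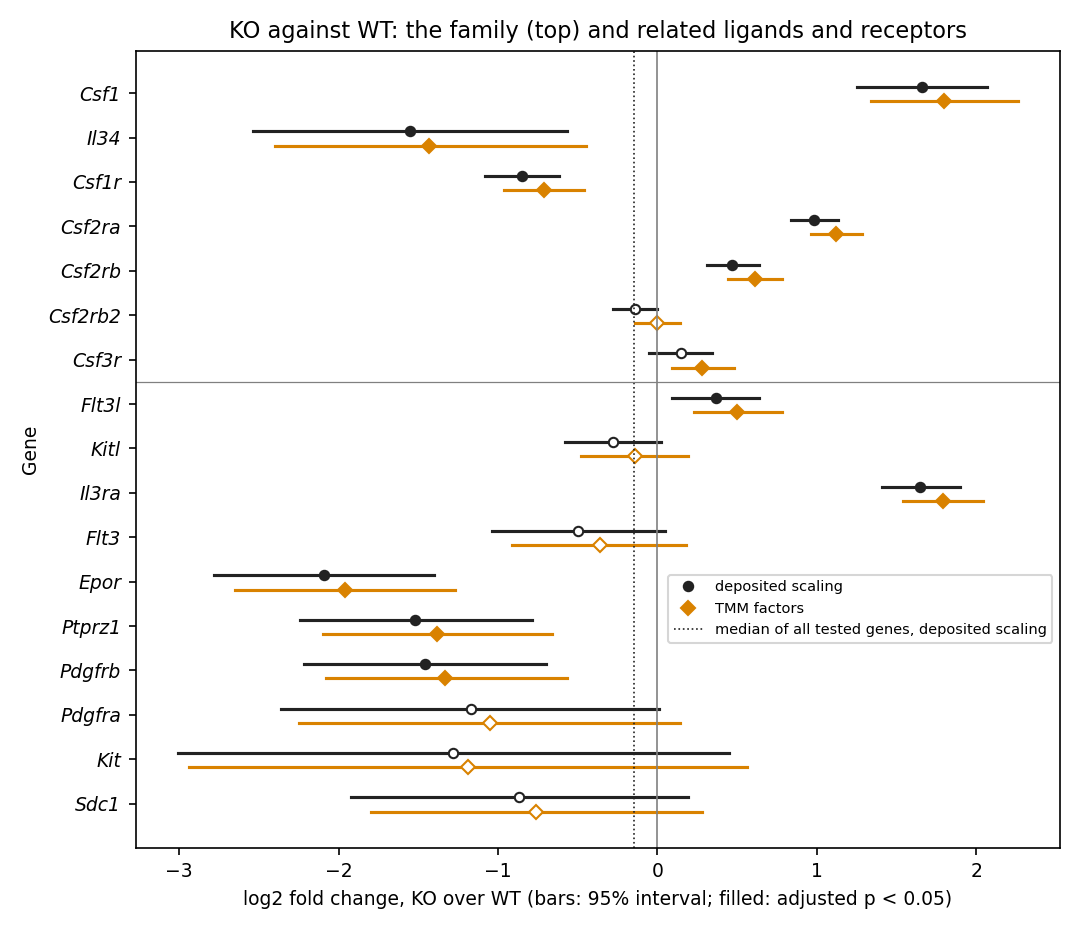
Log2 fold changes of KO over WT with 95% intervals for the 7 genes (above the line) and 10 related ligand and receptor genes that were tested; black points use the deposited scaling, orange points TMM factors, filled points have an adjusted p under 0.05 and the dotted line is the median of all tested genes. Csf1, Csf2ra, Csf2rb, Il3ra and Flt3l are higher and filled with either scaling. Csf1r, Il34, Epor, Ptprz1 and Pdgfrb are lower and filled with either scaling, and Csf3r is filled only with TMM factors.

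Among 10 related receptors, 8 were tested, of which 1 rose and 3 fell, where 11.3% of all tested genes rose and 23.4% fell. Il3ra, the alpha chain that joins the beta chains in the interleukin 3 receptor, held 521.7, 544.4 and 463.1 normalised reads in the libraries labelled KO, against 156.0, 168.2 and 159.2 in those labelled WT. On the log2 scale it rose by 1.65 (SE 0.11; limma, adjusted p = 1.86e-06), beside 1.66 for Csf1. Epor, the erythropoietin receptor gene, fell with a log2 fold change of -2.09 (adjusted p = 0.000536). Ptprz1, a glial phosphatase that also binds interleukin 34, and Pdgfrb, a receptor kinase of pericytes, fell with -1.52 (adjusted p = 0.00499) and -1.46 (adjusted p = 0.00785); both were highest in WT C, at 376.2 and 551.7, had -1.09 and -0.97 without it, and moved with the glial and endothelial marker sums given above, a link that was not tested. Flt3, Pdgfra, Kit and Sdc1 did not pass, with log2 fold changes of -0.50, -1.17, -1.28 and -0.87, and Pdgfra passed when the column letter was a block (adjusted p = 0.0366). Il5ra did not reach the level tested.

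Of 6 related ligands 2 were tested. Flt3l, the ligand of FLT3, held 260.6, 316.0 and 260.6 normalised reads against 226.9, 201.6 and 217.7, a rise of 0.37 on the log2 scale (SE 0.12, adjusted p = 0.0403). That call was lost when any 1 of the 6 libraries was left out, with adjusted p = 0.0535 to 0.124. Kitl, the ligand of KIT, had a log2 fold change of -0.28 (adjusted p = 0.143) and passed with the letter block (adjusted p = 0.0197). Il3 and Il5, like Csf2, had no read in any library.

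The list of 24 genes of CSF1R signalling, all tested, held 5 that rose and 11 that fell, with a median of -0.22 against -0.15 for all tested genes. With TMM factors 5 rose and 7 fell, and the median was -0.08 against -0.02. As shares of all tested genes, 11.3% rose and 23.4% fell with the deposited scaling, and 15.4% did so in each direction with TMM factors. This list and those after it were written with earlier results of these data known. The genes named here are 3 of the 4 with the smallest p. Ctnnb1, the beta-catenin gene, fell with -0.62 (adjusted p = 0.000132), the Src family kinase gene Lyn with -0.57 (adjusted p = 0.000158) and Mapk3, which encodes ERK1, with -0.41 (adjusted p = 0.000923).

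Of 11 genes for transcription factors that act on the Csf1r gene 4 rose and 2 fell, against 11.3% and 23.4% of all tested genes. With TMM factors 5 rose and 1 fell, against 15.4% of all tested genes in each direction. The median was -0.05 and 0.09, against -0.15 and -0.02 for all tested genes. Ets2, an ETS factor, held 6604, 9874 and 6607 normalised reads against 1619, 1654 and 1495, and rose by 2.25 on the log2 scale (SE 0.14; adjusted p = 1.04e-06). Cebpb, a C/EBP factor of macrophages, rose by 1.88 (adjusted p = 1.68e-06), and Egr2, a zinc finger factor, by 1.36 (adjusted p = 1.96e-05). Ets1 fell with -1.23 (adjusted p = 5.2e-05).

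The list of beta common receptor signalling, 17 genes, depended on the scaling: 5 rose and 5 fell with the deposited one and 10 rose and 1 fell with TMM factors. Of all tested genes 11.3% rose and 23.4% fell with the deposited scaling, and 15.4% passed in each direction with TMM factors. The median was 0.09 and 0.22, against -0.15 and -0.02 for all tested genes. Pim1, a kinase gene induced by STAT5, held 3936, 4557 and 3484 normalised reads against 950.2, 789.6 and 616.2, which is a rise of 2.36 on the log2 scale (SE 0.15; adjusted p = 1.19e-06). Mcl1, a survival gene of the Bcl2 family, rose by 0.99 (adjusted p = 1.42e-05), and Cish, a feedback inhibitor of STAT5, by 1.20 (adjusted p = 0.00129). Bcl2l1, another survival gene, fell with -0.45 (adjusted p = 0.00361), and with TMM factors with -0.31 (adjusted p = 0.0229).

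Of 8 genes that GM-CSF induces in macrophages or dendritic cells 6 were tested and 3 rose, with a median of 1.51; of all tested genes 11.3% rose. Itgax, the CD11c integrin chain, held 2740, 2551 and 2286 normalised reads against 1018, 775.8 and 754.3, which is a rise of 1.58 on the log2 scale (SE 0.12; adjusted p = 3.84e-06). Bhlhe40, a transcription factor gene, rose by 1.88 (adjusted p = 0.000268), and the chemokine gene Ccl22 by 1.59 (adjusted p = 0.00463) at a low level, 18.3, 15.5 and 20.6 against 5.06, 6.23 and 4.82. Pparg, at 1.44, Inhba, at -1.54, and Irf4, at -0.21, did not pass. Pparg passed with the letter block (adjusted p = 0.0475), and Inhba without WT B (-2.19, adjusted p = 0.0321). Other stimuli induce these genes too, and what induced them here was not tested.

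**Figure D4:**
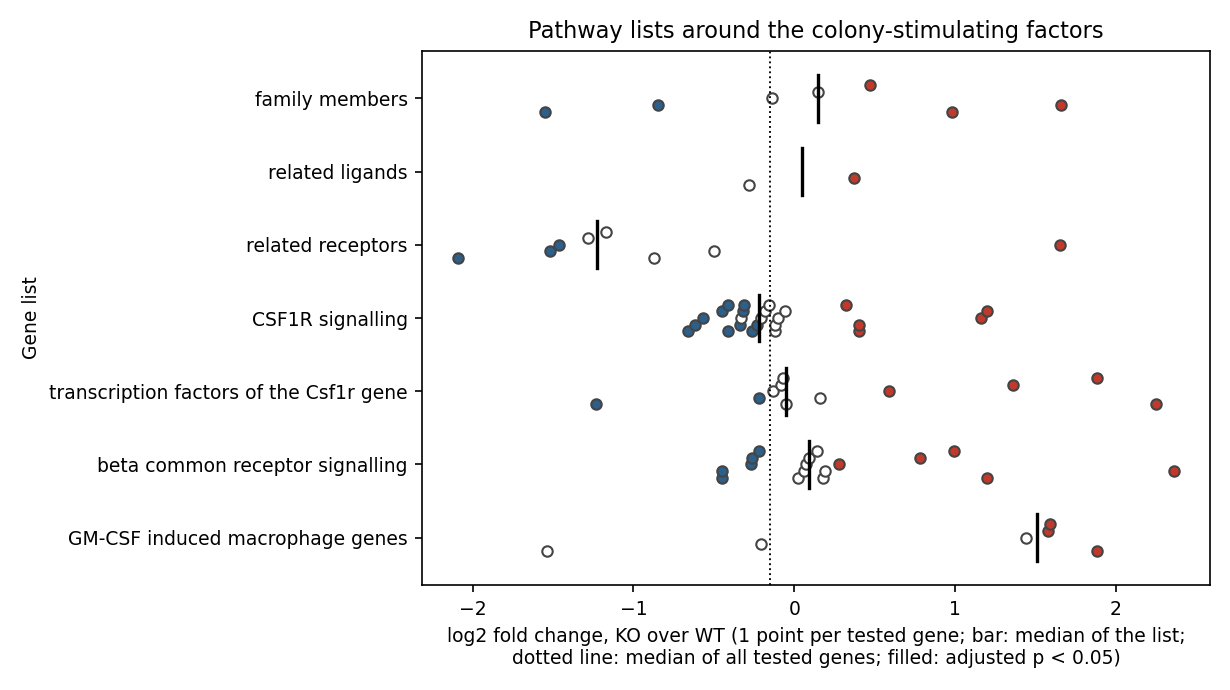
Log2 fold changes of KO over WT for the tested genes of each list, 1 point per gene, with the list's median as a bar and the median of all tested genes as a dotted line; filled points have an adjusted p under 0.05, red for higher and blue for lower. The 24 genes of CSF1R signalling centre at -0.22, close to the dotted line, while the 6 of the GM-CSF list have a median of 1.51.

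The patterns most like those of the members were sought over the 6 libraries, as the smallest root mean square difference of log2 values centred on each gene's mean, among 10187 genes. They came from the upper part of the tested genes, split at the median of their mean levels, without gene models (Gm or Rik symbols). For Csf1r these were Zfp11, Scamp5 and Abcg2, with differences of 0.028, 0.031 and 0.035. For Csf1 it was Gadd45b (0.1), for Csf2ra Cd72 (0.040), for Csf2rb Rnf31 (0.031), for Csf2rb2 Git1 (0.019), for Csf3r Spg7 (0.025) and for Il34 Nedd4 (0.116).

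The promoters of 4 of the 7 members were in the RefSeq table (GRCm38.p6), each 300 bases from 250 before the gene's start to 50 after it, and were searched on both strands for AGGAAGT, bound by PU.1 and other ETS factors, and for the STAT motif, TTC and GAA 3 bases apart. These letters were in 9.35% and 8.3% of all 32851 promoter windows. Csf2rb2 held 1 of each, in capitals, starting 15 bases before the gene's start for the STAT motif and 27 after it for the other, with no overlap. Csf1, Csf2ra and Csf3r held neither, and the windows of Csf1 and Csf2ra are shown as those of the largest rises beside that of Csf2rb2, which did not pass. They lie at chr3:107760420-107760719, chr19:61228369-61228668 and chr15:78305672-78305971, all on the minus strand.
Csf1: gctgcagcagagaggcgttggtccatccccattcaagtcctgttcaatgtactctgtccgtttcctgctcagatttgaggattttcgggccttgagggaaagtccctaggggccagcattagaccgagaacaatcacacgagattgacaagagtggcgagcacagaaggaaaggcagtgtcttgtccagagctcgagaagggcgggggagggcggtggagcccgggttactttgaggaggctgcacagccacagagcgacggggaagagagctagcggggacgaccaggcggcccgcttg
Csf2ra: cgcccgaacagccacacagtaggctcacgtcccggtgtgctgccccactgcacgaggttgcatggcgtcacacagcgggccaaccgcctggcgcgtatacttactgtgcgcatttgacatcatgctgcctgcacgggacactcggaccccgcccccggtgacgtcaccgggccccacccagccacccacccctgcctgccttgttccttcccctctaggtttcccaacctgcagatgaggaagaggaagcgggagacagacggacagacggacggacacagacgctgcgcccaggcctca
Csf2rb2: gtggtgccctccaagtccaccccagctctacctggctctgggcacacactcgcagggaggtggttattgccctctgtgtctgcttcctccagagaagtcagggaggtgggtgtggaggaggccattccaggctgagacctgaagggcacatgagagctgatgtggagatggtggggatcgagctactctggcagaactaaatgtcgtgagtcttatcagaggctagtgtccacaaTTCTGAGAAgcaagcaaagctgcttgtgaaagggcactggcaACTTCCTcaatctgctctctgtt
The hexamers ACTAAC and ACTAAT, the DNA letters of the core that QKI binds in RNA, occurred 2 times in the Csf1r transcript and 1 time each in those of Csf1 and Csf2rb. They were not found in the transcripts of Csf2ra, Csf2rb2, Csf3r and Il34. Of 22261 tested genes with a transcript sequence, 39.1% held at least 1. A match is a description of the sequence and not a measured site.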

How the data were processed

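RNA was sequenced from 3 libraries labelled KO and 3 labelled WT. The deposited values are a signal, reads per gene that the authors scaled to totals of 34360040 to 34360054 per library, and are not raw counts; this was read from the values. The submitters' processing notes list mm10/GRCm38 and, in no stated order or role, DESeq2 1.26.0, HOMER 4.11.1, STAR 2.7.1a and Trimmomatic 0.39. The deposited table also gives the authors' log2 fold change and p-value per gene. Of its 55421 rows 99.0% name a GENCODE M21 transcript at the same coordinates. Each column rises in equal steps (0.445 to 0.603 normalised reads), and after division by its step at least 99.92% of its values were whole to within 0.1; these are the recovered reads.

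Columns named Treatment were taken as KO and those named Control as WT, from the group names. Their letters match no label. Over 11597 genes the deviations from the group mean correlated between same-lettered columns at 0.61, 0.20 and 0.30, all above 0.1. Columns of different letters were not compared, so these values do not establish a pairing, and no label says what the letters mark. The letters served as a block in an alternative fit only, and the main limma test and the exact permutation tests did not use them. With the block 9378 genes passed, against 7781 without it. Within groups, every pair of libraries differed by more than sampling noise, the lowest chi-square per gene being 25.3.

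Repeated symbols kept their row of highest mean, and 117 rows were dropped. The main test was limma-trend (limma 3.58.1 under R 4.3.3) on log2(value + 1) for genes whose mean exceeded 1, a scale that understates the change of low genes, with Benjamini-Hochberg adjustment over all of them and a threshold of 0.05. Alternatives were pseudocounts of 0.1 and 5, other filters, all rows, TMM factors, edgeR 4.0.16, DESeq2 1.42.0 and limma-voom on recovered reads, a letter block and leaving out each library. The fits were tested on simulated data. The members and lists were chosen with earlier results of these data known. Named are all members, related ligands and receptors, up to 4 genes per list with the smallest p, and the nearest patterns, apart from items not reported here; Syt1, Gad2, Slc17a7, Inhba, Irf4, Stab1, the hairpin rows and the microglial markers were named after their values were seen, and the macrophage sum without Stab1 was added then.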

Additional observations from a re-analysis of the deposited data

How the results depend on the processing

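Csf1, Csf1r, Csf2ra and Csf2rb kept their direction and their call under every alternative run. Csf3r passed with TMM factors (0.28), edgeR with TMM or RLE factors (0.29 and 0.29), DESeq2 (0.29) and limma-voom (0.28); the authors' deposited table gives it 0.29 (adjusted p = 0.00687). Csf2rb2 was at 0.00, just above 0, with edgeR and RLE factors and with DESeq2, as in the authors' deposited table (0.00, adjusted p = 0.994). Il34 had -1.48 and was not called with limma-voom (adjusted p = 0.0653), ran from -1.89 to -1.04 with 1 library left out, and was not tested with the filter at the median; the cause was not tested.

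Genes called lower over the whole table numbered 3458 with TMM factors, 3353 and 3314 with edgeR (TMM, RLE) and 3066 with limma-voom, against 5252; the scaling sets this split. Members of CSF1R signalling called lower numbered 7, 6, 6, 7 and 7 with TMM factors, edgeR (TMM, RLE), DESeq2 and limma-voom. With each of those 5, 1 transcription factor gene and 1 beta common signalling gene were lower, and 10 of the latter were higher. With 1 library left out, lower genes numbered 1 to 2 for the transcription factors, 1 to 4 for beta common signalling and 0 to 1 for the GM-CSF list, and the related ligands had 0 higher. With the replicate block 1 related ligand, Kitl (-0.28), was lower, and Pdgfra (-1.17) and Pparg (1.44) passed; the block changed no other call among the 38 genes for which it was compared. Mir7676-1 (0.08) ran from -0.02 to 0.27 with 1 library left out, and Mir7676-2 passed with TMM factors, edgeR, DESeq2 and limma-voom. Il34 rests on 14 to 80 reads per library, which limits its precision.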
